A study of Mus musculus with 158 samples.

Results

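The sites described here are stretches of DNA that were open in kidney and in lung but had no hotspot in liver or in B cells. A hotspot is an interval in which DNase I, an enzyme that cuts accessible DNA, cut more often than expected at a false discovery rate (FDR) of 5%. Hotspots of 20 adult sets were merged wherever they overlapped by 1 bp or more on the 19 autosomes, which gave 714403 regions. A region was kept when it held a hotspot in 3 or more of 5 kidney sets and in 3 or more of 5 lung sets, and in none of the 5 liver and 5 B cell sets. This left 8360 sites, 1.17% of all regions. The sites were thus chosen by the measured hotspots of all 20 sets, and their presence in kidney and lung and absence elsewhere is a description and not a finding.

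The 20 sets came from 5 F1 hybrids, B6x129, B6xC3H, B6xCAST, B6xPWK and B6xSPRET. Each had a C57BL/6J mother, and the part of the name after the x stands for the strain of the father, which for the other hybrids than B6x129 was SPRET/EiJ (of another mouse species), PWK/PhJ, CAST/EiJ or C3H/HeJ. Mice were 8 weeks old, and the labels name no treatment or engineered allele. Both kidneys, the lungs and the liver were taken whole, usually with tissue of several mice combined, and B cells were purified from femoral marrow of females by depleting cells with CD43 or CD11b. The authors pooled 2 to 14 deposited DNase-seq samples into each set, so the spread between mice could not be measured and the 5 hybrids served as repeats. For many sets the paper counts fewer biological replicates than deposited samples, so the samples are not all separate replicates. Sets held 76055 to 286482 autosomal hotspots. Of 12 genes that mark kidney epithelium, 11 had a hotspot within 1 kb of their start in 3 or more kidney sets and 3 in lung sets, and of 10 genes of lung epithelium, 10 did in lung and 2 in kidney. All 12 hepatocyte genes had one in liver, and 9 of 10 B cell genes in B cells. Of the B cell genes, 9 also had one in lung and 4 in kidney, and of 14 genes of other leukocytes, 12 did in lung, 5 in kidney, 9 in liver and 7 in B cells. The part of blood cells in the sites was not tested.

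Kidney and lung are both whole organs of many cell types. Each is lined by epithelium that moves salt and water, each is filled with capillaries, and each holds fibroblasts, smooth muscle and elastic tissue. Distal regulatory DNA opens when transcription factors bind their short recognition sequences and displace nucleosomes, so a site open in both organs can belong to a cell type that both hold or to different cells of each. In whole organs these cannot be told apart.

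Sequences of 7 of the sites that were strongest in both organs are printed first, because they show what such a site looks like at the level of its bases. Strength was the percentile of a site's score, the authors' −log10 FDR, among all hotspots of the same set, and sites were ranked by the lowest percentile over the 10 kidney and lung sets. Each sequence is 200 bp of the forward strand of mm10 around the midpoint of the site, named by the protein-coding gene with the nearest start, and read from 5′ to 3′. Capitals mark matches on either strand to the 22 motifs described further on.
Zbtb32 site, chr7:30602575-30602774: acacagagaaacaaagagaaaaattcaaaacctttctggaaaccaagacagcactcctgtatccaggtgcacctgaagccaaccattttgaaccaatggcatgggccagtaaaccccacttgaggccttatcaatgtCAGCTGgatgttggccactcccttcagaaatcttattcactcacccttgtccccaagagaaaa
Fam83b site, chr9:76695620-76695819: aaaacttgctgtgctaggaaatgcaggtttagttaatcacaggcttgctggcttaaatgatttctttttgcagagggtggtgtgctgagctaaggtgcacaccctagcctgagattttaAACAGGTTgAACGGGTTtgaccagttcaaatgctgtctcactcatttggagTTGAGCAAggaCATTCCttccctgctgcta
Tfap2b site, chr1:19321514-19321713: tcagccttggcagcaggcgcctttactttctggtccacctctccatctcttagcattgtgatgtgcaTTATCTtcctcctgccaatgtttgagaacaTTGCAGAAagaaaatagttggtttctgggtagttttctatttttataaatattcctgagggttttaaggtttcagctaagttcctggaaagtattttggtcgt
Vwa2 site, chr19:56915270-56915469: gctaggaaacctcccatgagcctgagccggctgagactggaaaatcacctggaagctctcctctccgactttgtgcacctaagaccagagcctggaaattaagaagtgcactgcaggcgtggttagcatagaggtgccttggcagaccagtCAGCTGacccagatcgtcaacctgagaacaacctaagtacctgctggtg
Gm10577 site, chr4:100923323-100923522: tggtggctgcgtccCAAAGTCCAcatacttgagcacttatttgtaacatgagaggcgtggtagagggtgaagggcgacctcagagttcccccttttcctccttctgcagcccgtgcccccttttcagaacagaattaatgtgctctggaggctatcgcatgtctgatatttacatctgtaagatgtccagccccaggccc
Polr2f site, chr15:79131543-79131742: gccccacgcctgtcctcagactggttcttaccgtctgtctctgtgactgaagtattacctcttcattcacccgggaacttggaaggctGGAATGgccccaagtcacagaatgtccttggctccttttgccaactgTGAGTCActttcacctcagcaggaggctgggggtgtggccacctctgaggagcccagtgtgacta
Il23r site, chr6:67481103-67481302: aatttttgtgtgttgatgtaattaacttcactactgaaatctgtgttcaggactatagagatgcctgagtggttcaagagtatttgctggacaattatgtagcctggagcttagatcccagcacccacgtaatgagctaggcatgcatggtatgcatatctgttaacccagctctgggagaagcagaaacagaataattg
These windows are unlike one another. The Zbtb32 and Vwa2 windows each hold an E-box. The Fam83b window holds a pair of neighbouring matches for Grainyhead-like factors beside matches for TEAD and C/EBP, and the Polr2f window holds AP-1 and TEAD. The Tfap2b window holds GATA and C/EBP, and the Gm10577 window holds an HNF4 match. The Il23r window holds none of the 22 motifs.

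The strongest site lay 3.77 kb upstream of the start of Zbtb32, a zinc-finger repressor gene, in intergenic sequence at chr7:30602335-30603015. Its scores in kidney were 59.6, 51.7, 54.2, 56.7 and 62.0, with the hybrids in the order B6x129, B6xC3H, B6xCAST, B6xPWK, B6xSPRET that is kept throughout. In lung they were 52.1, 23.3, 99.6, 79.9 and 68.6. B6xC3H lung was the lowest of the 10 values and B6xCAST lung the highest. Scores stop at a ceiling of 100 and rank the hotspots of 1 set, and no test compares them between tissues.

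The 12 strongest sites were 517 to 1527 bp wide, and 5 had their midpoint in an intron, 5 between genes and 2 within 1 kb of the start of a transcript. Their scores ran from 17.6 to 100, and the lowest score of a site was that of B6xC3H lung in 10 of the 12. The site named for Polr2f lay 43 bp from a start of Micall1, a regulator of endosome recycling, and another lay 25 bp inside the start of Rbbp8nl. The Vwa2 site was in an intron of Afap1l2, the Gm10577 site in an intron of Cachd1, and others in introns were in Il23r and Pi4k2b, the kinase of membrane phosphoinositides.

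Not every set held a hotspot at every site. In kidney, 7959, 7159, 7601, 7833 and 6345 sites had one in the 5 hybrids in turn. In lung the numbers were 8084, 5417, 8287, 7321 and 6957. B6xC3H lung, which held the fewest hotspots of the lung sets (147871), had the lowest share with 64.8%, and B6xCAST lung, which held the most (273104), the highest with 99.1%. Whether the size of a set accounts for these shares was not tested.

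The sites were hotspots of middling strength. The median score at the sites was 4.62 to 6.62 over the kidney sets and 4.05 to 11.6 over the lung sets. Within their own sets these medians stood at percentiles 42.6 to 51.6 in kidney and 50.7 to 67.1 in lung. Only 188 sites reached the ceiling in any set, while 138 had a score of 10 or more in all 10 sets. A score below 2, which is an FDR above 1%, was held by 2.41% of the sites with a hotspot in B6xCAST lung and by up to 13.97% in B6xC3H lung.

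**Figure D1:**
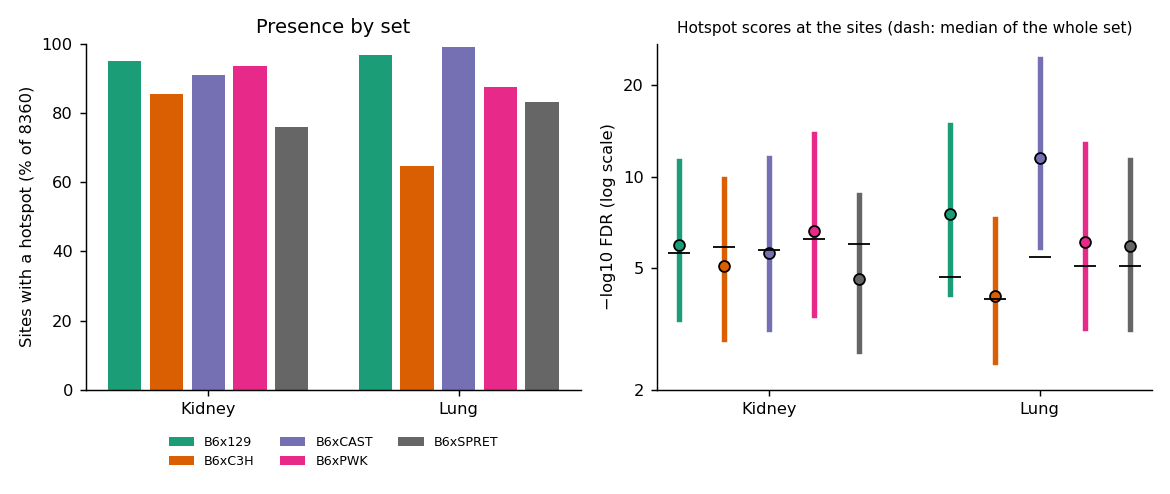
Left, the percentage of the 8360 sites with a hotspot in each kidney and lung set, from 64.8% in B6xC3H lung to 99.1% in B6xCAST lung. Right, the median (point) and middle 50% (bar) of the −log10 FDR at the sites on a log axis, with the median over all autosomal hotspots of the same set as a dash; the points lie near the dashes in kidney and at or above them in lung.

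All 10 kidney and lung sets had a hotspot at 2863 sites, 34.2% of the total, and 441 sites (5.28%) met the rule with exactly 3 of each. At the latter, just inside the rule, the median score was 2.80 in kidney and 3.34 in lung and the median width 319 bp. Just outside, 1963 regions had a hotspot in 2 kidney sets and 3 or more lung sets, with median scores of 2.39 and 5.81, and 2429 regions had 3 or more kidney sets and 2 lung sets, with 4.92 and 2.72. Another 3768 regions met the rule but for a hotspot in 1 liver set, and 487 but for 1 B cell set. Their medians were 6.75 in kidney and 7.35 in lung for the former, and 5.83 and 6.66 for the latter. Far more regions with 3 or more of each organ were also open in liver: 64555 had 3 or more liver sets, and 19190 of these had no B cell set. Among the settings tried, the fewest of the 8360 sites were kept when weak hotspots were left out. With only the 75000 highest-scoring hotspots of each set, 4374 regions met the rule, and they held 771 (9.22%) of the 8360 sites.

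A hotspot in each organ need not cover the same bases, since merging can join neighbours. It did at nearly all sites. In B6x129, 98.4% of the 7719 sites with a hotspot in both organs had kidney and lung hotspots that shared at least 1 bp, and in the other hybrids the share was between 96.6% in B6xC3H and 98.9% in B6xCAST.

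Because the rule used every set, its pattern was measured again in hybrids it had not seen. Sites were chosen in 4 hybrids (3 or more of 4 kidney and of 4 lung sets, none of the liver and B cell sets) and looked up in the hybrid left out. In kidney, a hotspot was present at 95.3%, 84.5%, 90.0%, 92.6% and 74.5% of such sites, with the left-out hybrid in the order above, and in lung at 96.5%, 63.9%, 98.9%, 86.3% and 81.4%. In liver the shares were 25.9%, 2.37%, 2.94%, 4.68% and 2.59%, and in B cells 1.03%, 0.316%, 3.57%, 1.17% and 0.638%. Kidney and lung were above liver and B cells in each of the 5 hybrids, with no overlap.

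The means were 87.4% ± 8.25 in kidney, 85.4% ± 14.02 in lung, 7.70% ± 10.2 in liver and 1.34% ± 1.29 in B cells (SD, n = 5 hybrids), and the mean difference of kidney and lung from liver and B cells was 81.9 percentage points ± 7.44. An exact permutation test with tissue labels exchanged within hybrids gave p = 0.000257 (two-sided), the smallest that its 7776 assignments allow. Labels were exchanged after the sites had been chosen by tissue, and each hybrid also helped to choose the sites of the other rounds. The rounds are thus not independent, and the p adds no support beyond the shares themselves. By comparison, all regions merged over the same 4 hybrids had a hotspot in the left-out set in 16.4% to 33.1% of cases in kidney and lung, 22.8% to 36.6% in liver and 8.42% to 18.1% in B cells. Liver of B6x129, the largest set with 286482 hotspots, stood apart. There, 2047 of 7891 sites chosen in the other hybrids had a liver hotspot. In all, 53.5% of sites in B6xC3H to 83.5% in B6xCAST were again open in kidney and lung and in neither other tissue.

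**Figure D2:**
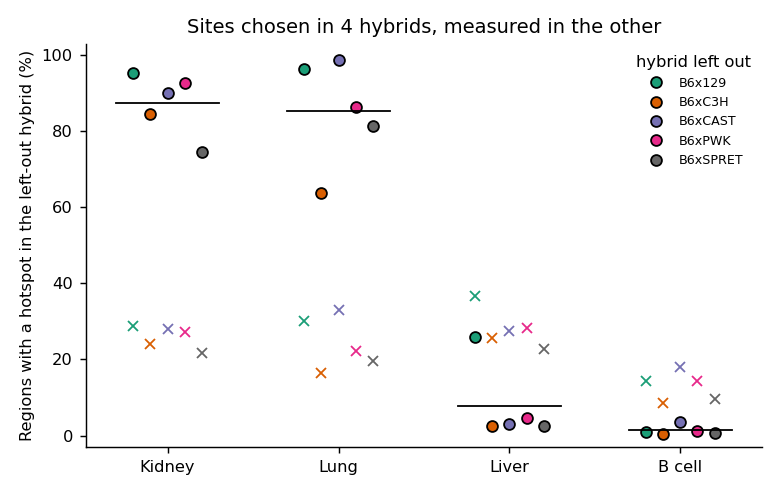
Percentage of sites chosen in 4 hybrids that had a hotspot in each tissue of the hybrid left out (circles, colour by hybrid; black line, mean of 5), with the percentage of all merged regions as crosses. Kidney and lung circles lie between 63.9% and 98.9%, liver circles between 2.37% and 25.9% and B cell circles at or below 3.57%.

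Few of the sites were near the start of a gene, as in the whole series. Their median width was 476 bp (middle 50%, 363 to 649 bp). Of the 8360 midpoints, 488 (5.84%) were within 1 kb of a transcript start of a protein-coding gene, 300 (3.59%) in other exonic sequence, 3838 (45.9%) in introns and 3734 (44.7%) between genes. Over all 714403 regions these shares were 6.35%, 3.82%, 41.0% and 48.8%. The median distance to a start was 24.7 kb, and 18.4% of sites were over 100 kb from any, against 26.9 kb and 26.2% of all regions. Sites open in liver and kidney only (15152 by the same rule) and in liver and lung only (6297) had medians of 16.5 kb and 19.4 kb. Sites were found on every autosome, from 218 on chromosome 19 to 627 on chromosome 2, and 21.1% lay within 10 kb of another.

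To test such features over hybrids, the regions of each hybrid with a hotspot in exactly 2 of its 4 tissues were compared, which gave 13156 to 29090 kidney and lung regions per hybrid. They were set against those of liver and kidney and those of liver and lung, the pairs that each share 1 organ with them. Class labels were exchanged within hybrids in an exact permutation test over 243 assignments (two-sided), whose smallest p is 0.00412, with Benjamini-Hochberg adjustment over 6 features. The test compares kidney and lung with the mean of the 2 other classes. Where 1 of those is the most extreme class, p cannot reach its smallest value, however far kidney and lung lies from it. The hybrids share loci and a mother strain, so they repeat the measurement and do not sample different genomes throughout.

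Kidney and lung regions were more often within 1 kb of a start (8.36% ± 0.996) than liver and kidney (6.82% ± 0.743) or liver and lung regions (6.24% ± 0.649; SD, n = 5 hybrids each; adjusted p = 0.00494). They were more often between genes, with 43.1% ± 0.534 against 40.3% ± 0.494 and 41.5% ± 0.498, and less often in introns, with 44.1% to 45.7% over the hybrids, against 48.1% ± 0.432 and 48.2% ± 0.480 (adjusted p = 0.00494 for each). Their GC content over 200 bp was 49.5% ± 0.773, above 47.4% ± 0.267 and 47.4% ± 0.671 (adjusted p = 0.00494). In each of these features the kidney and lung value lay beyond both other classes in 5 of 5 hybrids. Set against all regions, the 8360 sites stood the other way, with more in introns and fewer between genes.

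Some sites were also open in embryonic stem cells. Of the 8360 sites, 885 (10.6%, 95% Wilson interval 9.94 to 11.3%, for counting error alone) overlapped a DNase-seq hotspot of B6xCAST stem cells, against 5.53% of liver and kidney sites, 4.70% of liver and lung sites and 9.47% of all regions. By hybrid, 13.2% ± 1.64 of kidney and lung regions did, against 9.75% ± 3.53 and 6.75% ± 1.10 (adjusted p = 0.00494, exact permutation test, n = 5). The liver and kidney shares varied most, from 5.54% in B6xCAST to 14.3% in B6xC3H, where kidney and lung had 14.4%. CTCF is a DNA-binding protein that shapes chromatin loops and is bound at many of the same places in all cells. Only 233 sites (2.79%) overlapped a stem cell CTCF hotspot, against 7.95% of all regions. By hybrid the share was 4.99% ± 0.927, against 9.43% ± 4.13 in liver and kidney and 4.13% ± 1.41 in liver and lung, a difference that did not pass the test (adjusted p = 0.432, exact permutation test). The mean difference from both was −1.79 percentage points with an SD of 2.77, and 3.61 with the 75000 highest-scoring hotspots of each set.

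Sequence was not used by the rule, and the kidney and lung regions were rich in a few motifs. Matches were counted on both strands of the 200 bp window. The GGAATG motif is that of TEAD factors, which carry the signal of the Hippo pathway through YAP and TAZ. It was found in 1902 of the 8360 sites (22.8%), against 12.2% of liver and kidney sites, 12.3% of liver and lung sites and 12.4% of all 714403 regions. Among the regions of single hybrids, TEAD matches were in 21.3%, 20.7%, 18.9%, 20.8% and 20.4% of kidney and lung regions. The highest liver and kidney share was 12.8% and the highest liver and lung share 12.6%, so the classes did not overlap. The mean difference was 8.20 percentage points ± 0.991 (SD, n = 5; adjusted p = 0.0101 by the exact permutation test with Benjamini-Hochberg adjustment over 22 motifs).

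The E-box CAGCTG, a sequence of basic helix-loop-helix factors such as TCF21 of the stroma of both organs, was in 21.2% ± 0.913 of kidney and lung regions, against 13.8% ± 0.239 and 15.8% ± 0.647. The ETS motif CAGGAAG, read by factors of endothelium, epithelium and blood, was in 16.3% ± 1.98 against 9.24% ± 0.765 and 11.1% ± 0.462, with its lowest kidney and lung value of 13.5% in B6x129. Both had an adjusted p of 0.0101 in the exact permutation test. The ETS form with a CpG (CCGGAAG), which shares its last 5 letters with the first, was in 2.07% ± 0.357 against 0.911% ± 0.0824 and 1.19% ± 0.0842, and the GC box of SP and KLF factors (GGGCGGG) in 4.42% ± 0.494 against 1.86% ± 0.321 and 2.43% ± 0.332. The mean difference of the GC box was 2.28 percentage points, 1.52 over 1 kb from a start and 0.699 with windows of 45 to 52% GC only, an alternative chosen after the data were seen. Over the 8360 sites themselves, the E-box was in 21.2% and the ETS motif in 13.9%, where all regions had 13.1% and 10.5%.

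Motifs of 3 more factor families were rarer but passed too. The glucocorticoid response element was in 0.754% ± 0.132 of kidney and lung regions against 0.497% ± 0.0321 and 0.566% ± 0.0880, but did not pass with the 75000 highest-scoring hotspots of each set (adjusted p = 0.126, exact permutation test). The palindrome of EBF factors, known from B cells and also from stroma and fat, was in 1.08% ± 0.103 against 0.624% ± 0.0369 and 0.432% ± 0.0339. The RFX motif, of the factors that switch on cilium genes, was in 0.209% ± 0.0409 against 0.106% ± 0.0112 and 0.0874% ± 0.0227. These and the other motifs that passed had the kidney and lung share above both other classes in 5 of 5 hybrids, with an adjusted p of 0.0101 by the exact permutation test. TBX (AGGTGTG) was lower in all 5, with 3.56% ± 0.233 against 4.19% ± 0.107 and 4.31% ± 0.372 (adjusted p = 0.0101).

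In total 8 of 22 motifs were higher and 1 was lower, and 14 had an unadjusted p under 0.05. Motifs of epithelium and stress did not reach the adjusted threshold over all hybrids. AP-1 (TGANTCA), the Fos and Jun dimer, was in 11.1% ± 0.792 of kidney and lung regions, 7.38% ± 0.190 of liver and kidney and 10.3% ± 0.455 of liver and lung regions (adjusted p = 0.0711, exact permutation test). The motif of Grainyhead-like factors (AACNNGTT), which maintain epithelia, was in 4.40% ± 0.653 against 3.79% ± 0.134 and 3.84% ± 0.257 (adjusted p = 0.0658). Its lowest kidney and lung share, 3.51%, was in B6xCAST, the lowest among the 5 for AP-1 and TEAD as well. Their calls moved with the setting. Over the alternatives, the adjusted p of the exact permutation test ran from 0.0329 to 0.112 for AP-1, which passed over 1 kb from a start and in windows of 45 to 52% GC, and from 0.0181 to 0.181 for Grainyhead-like, which passed in 100 bp windows and in those of 45 to 52% GC. Both had their highest adjusted p with 75000 hotspots a set.

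Of the motifs of factors known from liver, HNF4 and HNF1 were in few of the sites. HNF4 (CAAAGTCCA) was in 22 of the 8360 sites (0.263%), against 3.89% of liver and kidney sites and 0.333% of liver and lung sites. HNF1 was in none of the sites, against 0.0726% and 0%. FOX (TGTTTAC) was in 4.08% of the sites, 3.70% of liver and kidney sites and 9.97% of liver and lung sites. C/EBP (TTGCNNAA) was in 11.1%, 10.2% and 24.1%. For each of these motifs, 1 of the other classes thus had a share close to that of the sites. By hybrid, none of these 4 motifs passed the exact permutation test against both other classes, with an adjusted p of 0.0785 for HNF4, 0.205 for HNF1, 0.228 for FOX and 0.136 for C/EBP. Over all 714403 regions, HNF4 was in 0.689%, FOX in 3.998%, C/EBP in 10.6%, AP-1 in 8.08% and Grainyhead-like in 3.53%, where the sites had 11.6% for AP-1 and 5.63% for Grainyhead-like.

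The remaining motifs did not pass, though the GATA share was below both other classes in 5 of 5 hybrids (adjusted p = 0.0634, exact permutation test). The motif of GATA factors, with the letters AGATAA, was in 9.49% of the sites and 10.9% of all regions, RUNX in 5.11% and 5.42%, and MEF2 in 3.58% and 3.24%. SOX was in 3.53% and 2.82%, and HOX in 2.67% and 2.53%. The motif of CTCF was in 1.20% and 3.35%, and the NFI palindrome in 0.0598% and 0.109%. For the motifs that passed, the shares over all regions were 1.20% for ETS with a CpG, 2.35% for the GC box, 0.432% for the glucocorticoid response element, 0.659% for EBF, 0.106% for RFX and 4.47% for TBX. A match is a stretch of letters and not a bound site, and 2004 sites (24.0%) held none of the 22 motifs in the window.

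**Figure D3:**
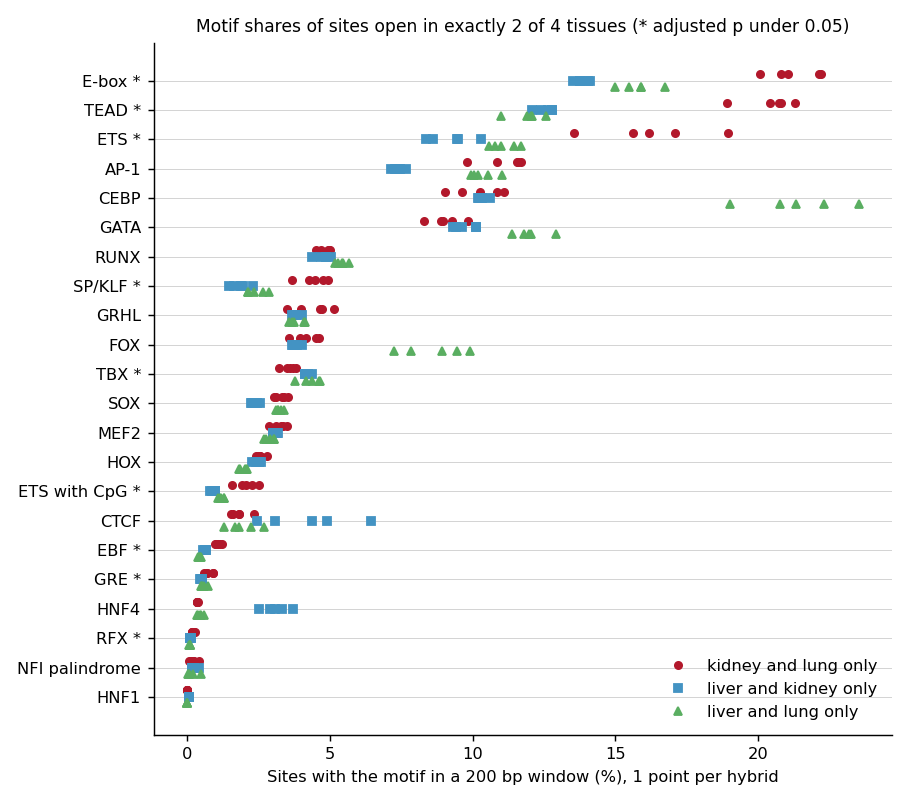
Percentage of regions with each of 22 motifs in a 200 bp window, 1 point per hybrid, for regions open in kidney and lung only (red circles), liver and kidney only (blue squares) and liver and lung only (green triangles), with an asterisk where the adjusted p was under 0.05. The red circles of TEAD lie between 18.9% and 21.3%, to the right of all blue and green points.

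Sites open in all 10 sets had a median width of 576 bp, against 431 bp for the rest. Their motif shares were close: TEAD was in 24.1% of the former and 22.05% of the latter, AP-1 in 11.1% and 11.8%, and Grainyhead-like in 6.39% and 5.24%. Since strength is part of the rule, these values are given as a description.

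The 8360 sites had 4612 different protein-coding genes as the one with the nearest start, of which 2759 had 1 site and 15 had 10 or more. An isolated gene gathers sites from a longer stretch of sequence, so numbers are given with those of the other classes. Sh3bp4, which encodes an adaptor of endocytosis and lies on chromosome 1 (89070415-89155068, forward strand), had 15 sites, against 2 liver and kidney and 1 liver and lung site. Of its sites, 9 were inside the gene, and 5 were open in all 10 sets. Klf6, a zinc-finger factor induced by injury, had 14 sites, none of them inside the gene and the nearest 23.9 kb from its start, against 2 and 1. Lrmda had 14, all within its own long transcription unit, against 6 and 1.

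The other genes with most sites were of mixed kinds. Tcf4, an E protein that pairs with other helix-loop-helix factors, had 13 sites (3 and 3 in the other classes, in the order above), Id4, an inhibitor of such pairing, 11 (5 and 1), and the zinc-finger genes Zfp608 and Zfp521 13 (11 and 15) and 10 (2 and 0). Cdh11, a cadherin of mesenchyme, had 10 (1 and 2). Npnt, whose product nephronectin is a basement membrane ligand of integrins in kidney development, had 10 within 97.9 kb of its start (2 and 2). Tns1, which links integrins to actin, had 10 (17 and 0), Utrn, the dystrophin relative utrophin, 10 (2 and 4), Kirrel3, of the nephrin family, 10 (2 and 1) and Plcb4, a phospholipase C, 10 (3 and 4). The gene models Gm10295 and Gm49355 had 12 (15 and 1) and 10 (4 and 0). For Zfp608, Gm10295 and Tns1, another class had more sites.

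Lists of marker genes were compared by the number of genes with a site within 50 kb of their start. Over all 20807 protein-coding genes the share was 28.3% for kidney and lung sites, 50.4% for liver and kidney and 25.2% for liver and lung, against which each list is read. Counts over lists are a description and carry no test.

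Epithelial genes stood at 20 of 29 (69.0%), against 15 and 14 in the other classes. Elf3, an ETS factor of lining epithelia, had 6 sites, Krt7, a keratin of simple epithelia, 3, Spint2, an inhibitor of surface proteases, 3, and Cdh16, a cadherin of kidney tubule, 2. Genes of ion and water transport stood at 15 of 22 (68.2%), against 12 and 10. Scnn1a, the alpha subunit of the epithelial sodium channel, Sgk1, the kinase that raises its activity, and the water channel Aqp4 had 3 sites each.

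Endothelial genes stood at 15 of 24 (62.5%), against 8 and 6. Aplnr, the apelin receptor, had 5 sites, Tek, the angiopoietin receptor, 3, Robo4 3 and Emcn 2. Genes of stroma and smooth muscle stood at 14 of 29 (48.3%), against 9 and 8, with 5 sites at Eln (elastin), 3 each at Mgp and Tbx2 and 2 at Acta2 (smooth muscle actin). In kidney and lung sets, 23 and 24 of the 24 endothelial genes had a hotspot within 1 kb of their start, against 21 in liver and 9 in B cells. Of the stromal genes 26 and 24 of 29 did, against 17 and 11. Starts of both lists were thus open in liver as well for most genes.

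Ciliated cell genes stood at 8 of 15 (53.3%), with 2 sites each at Foxj1, the master factor of motile cilia, Cfap43 and Tekt1. The other classes had 6 and 3 of these genes. Hippo and TEAD genes stood at 8 of 14 (57.1%), against 11 and 3, with 4 sites each at Lats2, a kinase of the pathway, and Tead4, and 2 each at its targets Amotl2 and Ankrd1. AP-1 and stress genes stood at 5 of 16 (31.3%), close to the share over all genes, against 8 and 2, with 2 sites at Fosl2 and Klf6 and 1 at Fos and Jun.

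Lists of the single organs and of blood varied. Kidney epithelium stood at 4 of 12 (33.3%), against 9 and 0, with 3 sites at Slc12a3, the salt carrier of distal tubule, and 2 at Pax2. Lung epithelium stood at 5 of 10, against 6 and 8, with 2 sites at Sftpc (surfactant protein C). Of the 12 hepatocyte genes and of the 14 genes of leukocytes other than B cells, 0 had a kidney and lung site, against 11 and 7 for liver and kidney sites and 4 and 6 for liver and lung sites. The B cell list stood at 3 of 10, with 1 site each at Ms4a1, Rag1 and Vpreb1.

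**Figure D4:**
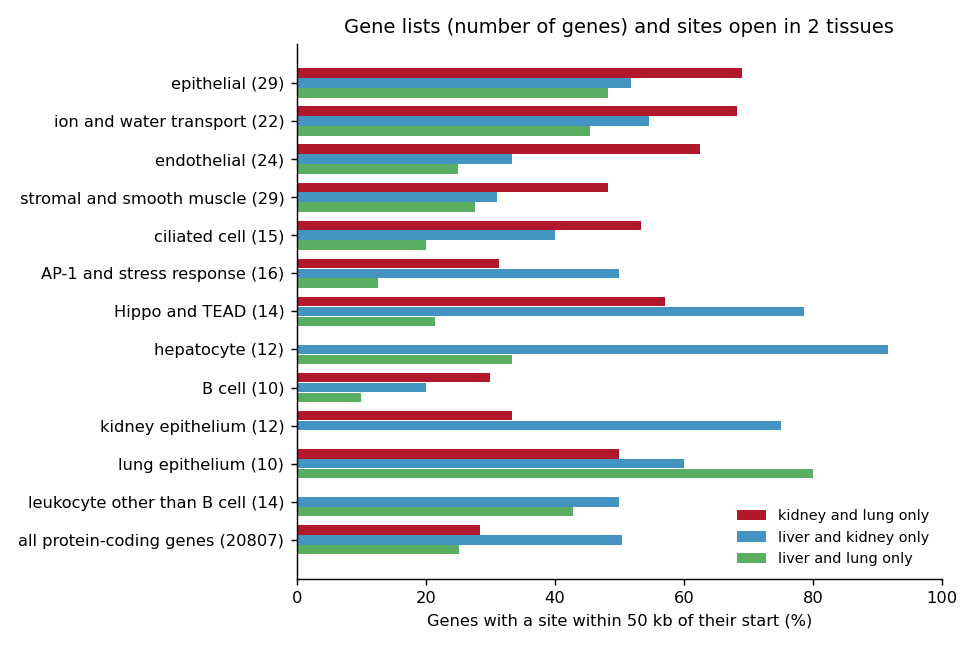
Percentage of the genes of each list, with the number of genes in brackets, that had a site of each class within 50 kb of their start, and the same over all 20807 protein-coding genes in the lowest row. For epithelial, transport, endothelial and stromal genes the kidney and lung bar is the longest of the 3, at 69.0%, 68.2%, 62.5% and 48.3%.

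The Elf3 locus shows how such sites stand among shared ones. Elf3 lies on the reverse strand of chromosome 1, from 135253575 to 135258568. Its 6 sites had their midpoints at −27.9, −2.39, 2.17, 6.99, 24.3 and 31.1 kb from the start, where negative is upstream, and 5 of them were open in all 10 sets. The widest, 1172 bp long at chr1:135260370-135261541, had kidney scores of 15.96, 7.22, 19.7, 37.6 and 10.4. Its lung scores were 48.5, 19.2, 100, 49.0 and 42.2, with the ceiling reached in B6xCAST. Within 50 kb of the start the kidney sets held 16 to 28 hotspots each, the lung sets 14 to 28, the liver sets 8 to 18 and the B cell sets 4 or 5, so liver had open sites at the locus but not these 6.

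**Figure D5:**
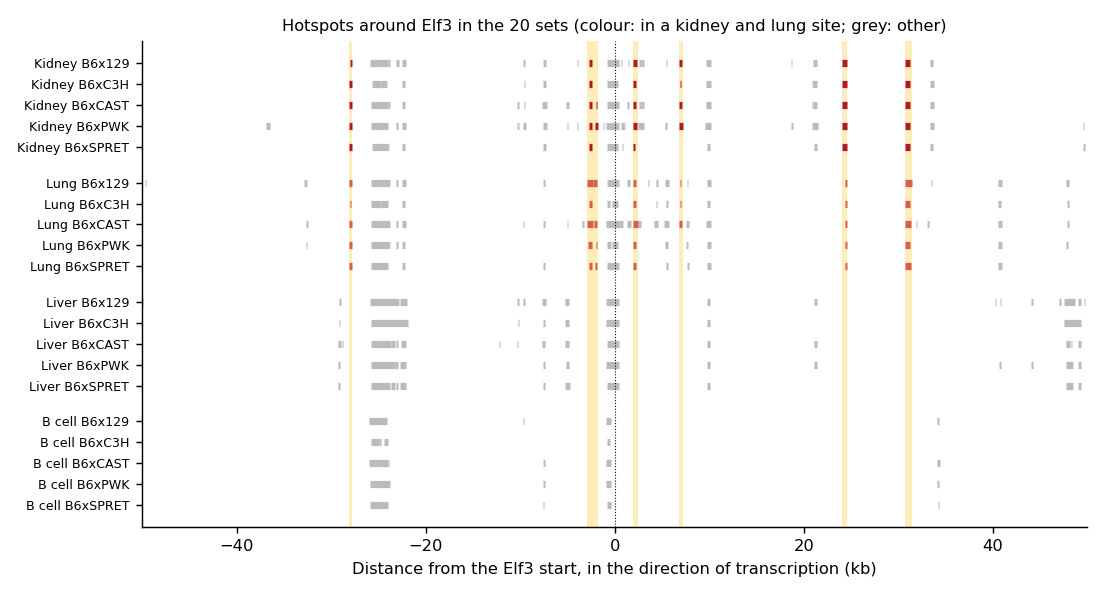
Hotspots of the 20 sets within 50 kb of the start of Elf3, plotted by distance in kb along the direction of transcription, with the 6 kidney and lung sites shaded and the hotspots inside them in colour. Each shaded band holds hotspots in kidney and lung rows and none in liver or B cell rows, while the grey hotspots at the start and in the cluster just right of the leftmost band are present in all 4 tissues.

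Aplnr and Eln had 5 sites each. At Aplnr, on chromosome 2, a site of 1439 bp covered the start of the gene (chr2:85136040-85137478). Its kidney scores were 12.8, 4.55, 7.90, 10.2 and 7.01 and its lung scores 11.5, 5.87, 45.5, 17.5 and 8.77. A second site open in all 10 sets, 745 bp wide, had its midpoint 3.22 kb downstream. At Eln, on chromosome 5, 4 of the 5 sites were upstream, with midpoints from −25.4 to −16.2 kb, and 1 was 13.03 kb downstream. Of the Eln sites, 2 were open in all 10 sets.

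RNA-seq tables of the same tissues were read beside the sites, with 4 samples each of kidney, lung and liver and 5 of B cells. The kidney, lung and liver samples came from 3 hybrids, B6xPWK, B6xSPRET and B6xC3H, with repeat samples of B6xSPRET in each. B cell samples came from the same hybrids, besides the sample whose hybrid differs between sources. No RNA sample was of B6x129. Whether they count RNA of the annotated strand is not given in the sources used here: genes whose exons face exons on the opposite strand held 73.7% to 90.4% of the counts. The values are therefore given as counts assigned to a gene and not as levels of its transcript. The totals were also small, at 283725 to 809337 counts a sample. Of 3382 genes with a start within 10 kb of a site, 386 passed the filter on low counts, which 4479 genes passed in all, and 233 of the 386 had opposite-strand exons. A gene could pass the filter through 1 tissue alone.

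Counts for genes near the sites were shifted towards kidney and lung. Against the mean of liver and B cells, the mean of kidney and lung was higher at 160 of the 386 genes (41.5%) and lower at 33 (8.55%) in edgeR's quasi-likelihood test at an adjusted p threshold of 0.05. The background over all 4479 genes was 27.1% higher and 14.3% lower. The median log2 difference was 0.57 near the sites and 0.12 over all genes. Kidney and lung were each above liver and each above B cells, with all 4 tests past the threshold, at 47 of the 386 genes (12.2%), where the background was 5.72%. Genes that pass the filter only where they are high are part of both shares, so these are descriptions.

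The genes with the largest difference among the 47 and a mean of at least 5 CPM (counts scaled to the library total) in kidney and in lung were mostly noncoding models. Gm15270, whose exons face those of Ccn2, a matrix protein and known target of TEAD and YAP, had 147 to 276 CPM in kidney, 202 to 1125 CPM in lung, 0 to 28.2 CPM in liver and 0 to 1.66 CPM in B cells. The log2 difference was 6.42 ± 0.43 (SE) with an adjusted p of 4.69e-11 in edgeR's test. Dnm3os, the host of microRNAs of mesenchyme, had 121 to 172 CPM in kidney and 145 to 302 CPM in lung, against 0 to 7.04 CPM in liver and 0 to 10.8 CPM in B cells, with a log2 difference of 6.43 ± 0.50 and an adjusted p of 4.61e-10 in edgeR's test. Its start lay 8.00 kb from a site. No exon of it overlaps an exon on the opposite strand, but it is annotated as antisense, so its strand is in doubt too.

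For the others, liver or B cells had a count of 0 in every sample, so no fold is given. Mecomos, opposite the transcription factor gene Mecom, had 40.4 to 61.1 CPM in kidney and 245 to 400.3 CPM in lung, and up to 9.70 CPM in liver. Gm26889, opposite Svep1, a matrix protein gene, had 168 to 249.6 CPM in kidney and 269.9 to 334 CPM in lung, and 10.4 to 19.4 CPM in liver. Adam1b was the protein-coding gene among the 10, with 112 to 238 CPM in kidney and 87.4 to 161 CPM in lung, 0 in all liver samples and at most 4.06 CPM in B cells. D630002J18Rik, opposite Gipc2, had 556 to 627 CPM in kidney and 91.4 to 206 CPM in lung, and Gm38391, opposite the collagen-modifying enzyme gene Plod2, 63.7 to 114 CPM and 53.6 to 115 CPM. 1700003D09Rik, opposite Ppp1r1b, had 56.1 to 74.3 CPM in kidney and 11.7 to 23.6 CPM in lung, Gm9910, opposite Cyb561, 9.35 to 21.2 CPM and 81.4 to 111 CPM, and Gm15866 5.31 to 12.4 CPM and 31.7 to 107 CPM. The adjusted p of these 8 genes ran from 3.94e-12 to 5.58e-06 in edgeR's test. In each of the 10, no liver or B cell sample reached the lowest kidney or lung sample. The 10 were picked as the largest differences among genes already called above both. This gap and the adjusted p of the 10 are therefore descriptions and add no support. How many of all tested genes show it was not counted.

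Of the 33 genes called lower, those with the largest difference followed liver or B cells. Zbtb37, opposite Serpinc1, the antithrombin gene of liver, had 2056 to 3098 CPM in liver and 7.85 to 30.4 CPM in kidney and lung. Gm37736 had 377 to 931 CPM in liver and at most 21.7 CPM elsewhere, and Gm44892 had 29.95 to 47.4 CPM in B cells and at most 5.19 CPM elsewhere. In whole organs, fewer cells of a type and less RNA per cell cannot be told apart.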

How the data were processed

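DNase-seq hotspots were used as deposited. The authors trimmed reads with Trimmomatic, aligned them with BWA to mm10 and strain-specific genomes, pooled the samples of each hybrid's tissue, and ran hotspot2 with an FDR of 5%. The deposited score is the −log10 FDR, with a ceiling of 100. Read depth per set was not used here, and the number of hotspots per set (76055 to 286482) is given. RNA-seq was aligned with STAR, and the authors deposited RSEM tables with expected counts and TPM per gene, 283725 to 809337 counts a sample in 17 samples. The groups are those of the labels. One B cell RNA sample, whose hybrid differs between sources, was used for its tissue only.

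Positions are in mm10, counted from 1, and sequences were read from RefSeq GRCm38.p6, the same assembly. Genes and transcript starts were those of GENCODE vM21, which gave a symbol to 53620 of 53715 gene IDs. Regions were classed by their midpoint. Motifs were matched as letters on both strands of a 200 bp window. RUNX was searched as TGTGGTT. For SOX the letters were ACAATGG, which need not be the only form bound. The HOX form was CCATAAA, and the other motifs are spelled in the text. HNF1, the NFI palindrome, GRE, EBF, CTCF, RFX and MEF2 are given by name. Exact permutation tests exchanged tissue or class labels within hybrids. For RNA, rounding of the expected counts came before edgeR's quasi-likelihood test (normalised by TMM, filterByExpr, all 17 samples, Benjamini-Hochberg adjustment). The interval, motif, permutation and count code was tested on simulated data.

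The sites, gene lists and motifs were chosen with earlier results of these data known. Named were the 12 sites with the highest lowest percentile, the 15 genes nearest to most sites, the 4 genes of each list with most sites (ties by symbol), 10 genes among those with RNA counts above both other tissues and 3 among those called lower. For some lists fewer of the 4 are printed. Some named items are not reported here. Alternatives were other thresholds, numbers of hybrids, merging, set sizes, windows and count tests, and leaving out each hybrid or RNA sample. The authors' TPM was used only in the limma alternative, on log2(TPM + 1). Python 3.11.15, numpy 2.4.6, pandas 2.3.3, scipy 1.17.1, matplotlib 3.10.9, R 4.3.3, edgeR 4.0.16, limma 3.58.1 and DESeq2 1.42.0 were used.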

Additional observations from a re-analysis of the deposited data

Results flagged for a closer look

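In 62 groups of 4 or 5 values, 6 values stood far from the rest of their group, a rule that flags about 1 group in 20 by chance. Of sites chosen in the other hybrids, 25.9% had a liver hotspot in B6x129, against 2.37% to 4.68% in the other hybrids, and 3.57% had a B cell hotspot in B6xCAST, against 0.316% to 1.17%. These sets were the largest of their tissue, with 286482 and 151020 hotspots, and the part of set size was not tested.

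In lung, D630002J18Rik had 91.4 CPM in B6xPWK replicate 1, against 200.4 to 206 CPM, and Gm15866 had 107 CPM in the same sample, against 31.7 to 37.3 CPM. In kidney, Dnm3os had 172 CPM in B6xPWK replicate 1, against 121 to 126 CPM, and Gm15866 had 5.31 CPM in B6xSPRET replicate 2, against 11.3 to 12.4 CPM.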

How the results depend on the processing

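Of 302 values under alternatives for 39 results, 256 were taken as kept. Test results were kept with the same direction and side of the threshold. Counts were kept within a set factor of the main value, so that 6336 sites against 8360 counted as kept. Shares were kept inside the Wilson interval, which covers counting error alone. The differences for stem cell CTCF hotspots and for the CTCF motif, neither past the threshold, changed sign with 75000 hotspots a set, to 3.61 and 0.203 points from −1.79 and −1.27, and the cause was not tested. The number of sites was 13521 with 2 or more of 5 hybrids, 5358 with 4 or more, 2863 with 5 of 5 and 4374 with the 75000 highest-scoring hotspots of each set. That last setting moved the share within 1 kb of a start to 10.95%, in introns to 42.6%, with a stem cell DNase-seq hotspot to 20.8% and with a CTCF hotspot to 8.57%. The DNase-seq share was 11.5% at an FDR of 1% and 12.1% with 5 of 5 hybrids. Lower motifs numbered 2 with 300 bp windows and 3 with 75000 hotspots, where GRE no longer passed (adjusted p = 0.126, exact permutation test). Higher RNA calls numbered 271 of 1048 genes (25.9%, 16.1% over all genes) with DESeq2 and 351 of 2245 (15.6%, 9.31%) without the filter, and limma gave 72 of 386 (18.7%, 9.15%) above both other tissues. Higher, lower and above both numbered 31, 7 and 12 of 83 genes within 2 kb, and 571, 179 and 141 of 1555 within 50 kb. For genes with no opposite-strand exon they numbered 69, 10 and 18 of 153. The higher shares in these settings were 37.3%, 36.7% and 45.1%, against 27.1% over all genes. The shares above both were 14.5%, 9.07% and 11.8%, against 5.72%. The cause of these and the other changes was not tested.

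Without 1 hybrid, sites numbered 6336 to 7891, with 5.74% to 6.59% near a start, 45.3% to 46.0% in introns, 10.9% to 12.2% with a DNase-seq and 2.40% to 3.19% with a CTCF hotspot, and the difference in left-out hybrids was 79.5 to 84.1 points. Without B6x129, 68.7% of the 8360 sites were kept. Without 1 RNA sample, 370 to 440 genes near the sites were tested. Of these, 153 to 203 were higher, 24 to 33 lower and 44 to 50 above both. The higher shares ran from 39.4% to 46.6%, against 25.7% to 30.5% over all genes. The shares above both ran from 10.0% to 12.7%, against 5.26% to 5.88%. The permutation tests already compare within hybrids. Pairing by replicate number was not possible, because these numbers do not enter the pooled sets, and in RNA they only name samples. With hybrid as a covariate, in 16 samples, the counts were 162, 36 and 49 of 372 genes. The shares were 43.5% higher and 13.2% above both, against 28.6% and 6.04% over all genes. The number of hotspots per set limits what can be called absent.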

Other observations

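On chromosome X, which the rule left out, 203 of 31351 merged regions (0.648%) had the same pattern of hotspots.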
